A study of Mus musculus with 36 samples.

Results

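Mouse embryonic fibroblasts (MEFs) that carry CRE in their column headings were compared after 4 h of methionine replenishment and in the methionine-deprived state, over all genes. The comparison used 6 of the 24 fibroblast libraries and of the 36 libraries of the whole series, 3 headed as replenished for 4 h and 3 headed as deprived. Both groups came from the cell line MEF Vps15f/f, in which both alleles of Vps15 are floxed, and both received an adenovirus with CRE, which the labels give as the genotype Vps15KO. Vps15, the product of Pik3r4, is the regulatory partner of Vps34 in the class 3 phosphoinositide kinase (PI3K). Cells were grown to near confluence in high-glucose medium with serum. The deprived group then had 4 h in medium free of methionine, and the replenished group had 4 h without methionine followed by 4 h with methionine given back. Columns headed GFP are given by the labels as WT, the same cells after an adenovirus with GFP. Of these, 6 with the same headings of treatment gave the contrast for the test of a difference between the headings. Nothing in the labels says whether the 3 libraries of a group came from separate transductions. The p-values therefore measure the spread between libraries of a heading, pooled over the 24 fibroblast libraries, which may be technical.

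Methionine is an essential amino acid that starts protein synthesis and is turned into S-adenosylmethionine (SAM), the methyl donor for DNA, RNA, histones and lipids. Cells short of an amino acid load less of its transfer RNA, which activates the kinase GCN2 and raises translation of the transcription factor ATF4. ATF4 then drives genes for amino acid uptake, amino acid synthesis and stress. The messenger RNA (mRNA) of Mat2a, the enzyme subunit that makes SAM, is known to be stabilised when SAM is low. The class 3 PI3K makes the lipid that autophagosomes and endosomes need.

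Polyadenylated RNA was read, and whole counts recovered from the deposited log2 values summed to 19345029 to 21245006 per library, the range of these 6 libraries as well as of all 24. Below, a level is a normalised count, which is a read count divided by the submitters' scaling factor for its library. A difference is replenished minus deprived on the deposited log2 scale, with its standard error (SE) from limma, and a gene rose or fell where its p-value, adjusted over the 13914 genes tested, was under 0.05. Many fibroblast markers were present, with Col1a1 at 1519 and 1623 CPM (counts scaled to the total of the library) in the deprived and replenished groups and Vim at 2964 and 3246. Others on the list were low. Thy1 had 1 count in each group, and Fap stood at 0.32 and 0.26 CPM and Postn at 0.97 and 0.94 CPM. Lum was at 2.4 and 1.8 CPM and Dcn at 5.1 and 4.8 CPM. Many markers of other cell types were at or near 0, but not all. Egfl7 of endothelium stood at 10.6 and 12.3 CPM in the deprived and replenished groups. Cd68 of macrophages was at 8.8 and 9.5 CPM and Fabp4 of adipocytes at 6.9 and 6.5 CPM. The listed adipocyte markers summed to 13.3 to 14.3 CPM in deprived and 11.2 to 12.6 CPM in replenished libraries. The summed level of the listed markers was 13.7 to 17.7 CPM for macrophages and 12.6 to 16.8 CPM for endothelium over the 6 libraries, and at most 1.38 CPM for epithelium. The neural list was an exception at 194 to 202 CPM in deprived and 230 to 238 CPM in replenished libraries, of which Nes went from 91.2 to 135.9 CPM, Map2 from 28.2 to 35.8 CPM and Sox2 from 74.2 to 57.9 CPM between the groups, while Gfap, Olig2, Snap25 and Syp had 0 to 2 counts per group. In bulk RNA, fewer cells of a type and less RNA per cell cannot be told apart.

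Some facts about the libraries bear on every value. Replenished library 3 stood apart. It held 0.644% of its counts in mitochondrially encoded genes, against 1.62% and 1.63% in replenished libraries 1 and 2 and 1.43 to 1.47% in the deprived libraries. The chi-square of its counts against libraries 1 and 2, per degree of freedom, was 20.04 and 18.03, against 2.12 between libraries 1 and 2 and 2.17 to 2.99 among deprived libraries. The order of the columns also differs from the numbers at the end of the library names in the labels. The deprived CRE columns stand at places 16 to 18 and are numbered 10 to 12 in the labels, where numbers 16 to 18 belong to Vps15KO cultures replenished for 1 h. The replenished CRE columns stand at places 22 to 24 and carry those same numbers. Groups are therefore called by column heading throughout, and which order the values follow was not tested. The total count of the targeted gene did not separate the headings. Pik3r4 (chromosome 9, 105642978 to 105687657, plus strand, build mm10) averaged 763 to 925 normalised counts over the 4 GFP headings and 842 to 1087 over the 4 CRE headings, and the labels used here do not say which exons are floxed, so a count over the whole gene does not check the deletion. In the compared libraries Pik3r4 stood at 818, 922 and 936 when deprived and 868, 836 and 822 when replenished, groups that overlap, with a difference of -0.078 ± 0.052 (adjusted p = 0.21). Without deprived library 1 that difference was -0.14 and past 0.05.

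After replenishment the largest changes were mostly falls, in genes of amino acid stress, immediate early genes and Mat2a, while sterol, antioxidant and heat shock genes rose. In limma's test 3614 genes rose, 26% of those tested, and 3597 fell, 25.9%. With each library shifted to a common median, the split became 4618 higher and 2990 lower. Most changes were small, with a median absolute difference of 0.30 among the genes past 0.05, and 82.6% of them under 0.5. Of genes that changed by at least 1 on the log2 scale, 11 rose (0.0791%) and 94 fell (0.676%). The libraries of the groups did not overlap for 7636 genes, 54.9% of those tested.

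**Figure D1:**
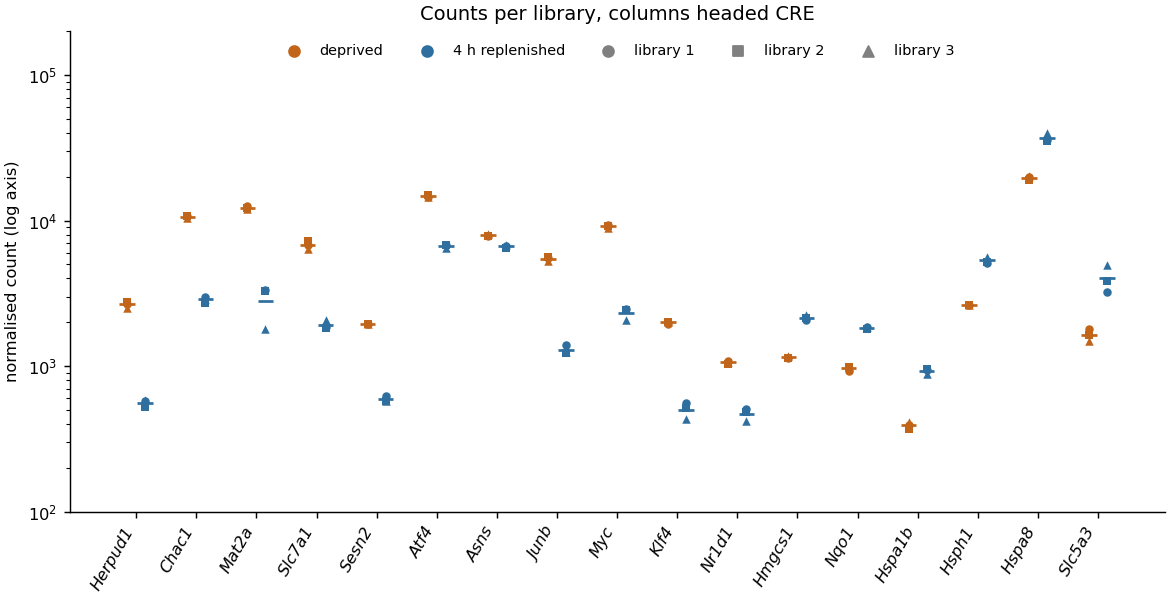
Normalised counts (log axis) of 17 genes in each of the 3 deprived and 3 replenished libraries headed CRE, with bars at the group means. For the genes shown the groups do not overlap, and replenished library 3 sits lowest for Mat2a, at 1809.

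Genes of SAM synthesis and of the methionine cycle went different ways. Mat2a (chromosome 6, 72432799 to 72439558, minus strand) stood at 12640.4, 12248 and 11969 normalised counts in the deprived libraries and at 3351, 3299 and 1809 in the replenished ones. All replenished libraries were below all deprived ones, and library 3 was the lowest. The difference was -2.16 ± 0.15 (SE from the spread pooled over the 24 libraries, n = 3 and 3, limma adjusted p = 2.14e-09), and -1.87 without replenished library 3. On the log2 scale the SD was 0.5 among the replenished and 0.039 among the deprived libraries. The pooled SE does not show the wider spread of the replenished group. Of the 17 tested genes of the methionine cycle and SAM enzymes 6 rose and 4 fell, with a median of -0.002, beside a median of 0.01 and shares of 26% and 25.9% over all genes tested, against which each list below is read. With Mat2a fell Mtrr (-0.63), which reactivates methionine synthase, and Cth (-0.77), which makes cysteine from cystathionine. Mtap, which returns the methylthio group of methylthioadenosine to methionine, rose by 0.57, from 2667, 2674 and 2631 to 3884, 3885 and 4139 normalised counts. Mettl16, the RNA methyltransferase known to act on Mat2a mRNA, rose by 0.20, and Mat2b, the regulatory subunit, had a difference of -0.066 that was not past 0.05. Of 15 polyamine genes, whose pathway uses decarboxylated SAM, 5 rose and 4 fell, and 3 rose without deprived library 2, replenished library 1 or replenished library 2. Among them the antizymes Oaz1 (0.27) and Oaz2 (0.32), which limit ornithine decarboxylase, were higher, and the antizyme inhibitors Azin1 (-0.36) and Azin2 (-0.42) and the SAM decarboxylase Amd1 (-0.27) were lower.

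Genes of the ATF4 amino acid stress response were lower after replenishment in 32 of 41 cases and higher in 2, with a median of -0.41, and the counts were the same without replenished library 3. The promoters of 3 of them are printed because they hold the letters of an ATF4 site. The windows are 250 bases before to 50 after the RefSeq transcription start, from RefSeq on GRCm38.p6, written 5′ to 3′ on the strand of the gene. Capitals mark a match to TGATGNAA on either strand (TTNCATCA on the other), the core to which ATF4 with a C/EBP partner is known to bind. The Chac1 window is chr2:119350992-119351291, plus strand, that of Trib3 is chr2:152344011-152344310, minus strand and that of Asns is chr6:7693160-7693459, minus strand.
Chac1: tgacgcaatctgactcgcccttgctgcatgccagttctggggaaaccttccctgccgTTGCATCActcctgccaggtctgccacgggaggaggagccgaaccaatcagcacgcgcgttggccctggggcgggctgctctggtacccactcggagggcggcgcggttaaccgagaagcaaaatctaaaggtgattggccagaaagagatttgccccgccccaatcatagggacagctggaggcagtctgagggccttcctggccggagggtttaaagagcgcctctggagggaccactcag
Trib3: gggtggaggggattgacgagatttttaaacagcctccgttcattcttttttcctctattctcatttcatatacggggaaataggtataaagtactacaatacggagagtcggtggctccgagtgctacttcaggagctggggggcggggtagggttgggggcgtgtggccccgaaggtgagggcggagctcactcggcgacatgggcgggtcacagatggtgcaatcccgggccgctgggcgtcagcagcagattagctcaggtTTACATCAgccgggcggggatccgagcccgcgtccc
Asns: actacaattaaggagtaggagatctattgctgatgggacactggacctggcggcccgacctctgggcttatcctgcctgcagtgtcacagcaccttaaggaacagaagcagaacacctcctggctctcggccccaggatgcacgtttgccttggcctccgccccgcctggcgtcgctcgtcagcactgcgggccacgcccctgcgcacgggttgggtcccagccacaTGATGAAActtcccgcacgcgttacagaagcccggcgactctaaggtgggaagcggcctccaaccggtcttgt
The match began 193 bases before the start in Chac1, 23 before it in Asns and 14 after it in Trib3. A match was held by 12 of the 35 tested list genes that have a window (34.3%), against 2.74% of the 10604 tested genes with a window and 3.97% of the 32851 windows searched. A match of letters is a description of the window and not a sign of binding.

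Chac1 (chromosome 2, 119351229 to 119354381, plus strand), which breaks down glutathione, stood at 10725, 10809 and 10405 normalised counts when deprived and at 3006, 2723 and 2884 when replenished. The groups were far apart and each was tight. Its difference was -1.88 ± 0.052 (adjusted p = 2.52e-22), and -1.88 without replenished library 3. Atf4 itself (chromosome 15, 80255184 to 80257541, plus strand) went from 14435, 14885 and 14619 to 6844, 6806 and 6461 normalised counts, a difference of -1.12 ± 0.04 (adjusted p = 9.93e-21). Trib3, a pseudokinase that ATF4 induces, went from 5669, 5855 and 5969 to 2265, 2382 and 2476 normalised counts, a difference of -1.28 ± 0.049. Herpud1 (chromosome 8, 94386438 to 94395377, plus strand), a protein of the endoplasmic reticulum (ER) membrane that serves degradation of misfolded proteins, had the largest fall of the genes named by size, from 2678, 2775 and 2509.7 to 572, 527 and 587 normalised counts (-2.17 ± 0.055, adjusted p = 1.66e-24). Sesn2, which restrains mTORC1 when leucine is low, stood at 1933, 1940.2 and 1941 and then at 621, 577 and 573 normalised counts (-1.66 ± 0.057). Ppp1r15a, which lets eIF2 alpha be dephosphorylated, fell by 1.52.

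Not all of the response moved to the same extent. Asns (chromosome 6, 7675169 to 7693254, minus strand), asparagine synthetase, stood at 7876, 7808 and 8042 normalised counts when deprived and at 6641, 6501 and 6833 when replenished. These groups did not overlap, but the difference was only -0.25 ± 0.041 (adjusted p = 6.04e-06). Ddit3, the stress factor CHOP, went from 3815, 3792 and 3859 to 3072, 2849 and 3051 normalised counts (-0.35 ± 0.056). Psph, of serine synthesis, had overlapping libraries at 1980.3, 2022 and 2114 and 1535, 1594 and 1994 normalised counts, a difference of -0.26, and -0.38 without replenished library 3. The 2 genes that rose were Ddit4 (0.34), an inhibitor of mTORC1, and Atf5 (0.10). Psat1 (-0.049), Pycr1 (-0.087), Shmt2 (-0.096), Pck2 (-0.047), Aldh18a1 (-0.033), Nupr1 (-0.055) and Cdsn (-0.034) were not past 0.05.

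Amino acid transporters were lower in 12 of 16 cases and none was higher, with a median of -0.32. Slc7a1 (chromosome 5, 148327410 to 148399904, minus strand), the carrier of arginine and lysine, stood at 6819, 7256 and 6400.1 normalised counts when deprived and at 1863, 1819 and 2059.9 when replenished. Its difference was -1.81 ± 0.057 (adjusted p = 2.32e-19), and no library of one group reached the other. Slc1a4, a carrier of alanine, serine and cysteine, fell by 1.17, Slc38a1 and Slc38a2, which take up glutamine and other neutral amino acids, fell by 0.51 and 0.36, and Slc7a5 and Slc3a2, the chains of the carrier that brings in leucine and methionine, by 0.37 and 0.28. Of 23 cytosolic aminoacyl-tRNA synthetases 12 fell and 2 rose, with a median of -0.13 (9 and 3 with library medians aligned). The threonine enzyme Tars was at -0.40, the isoleucine enzyme Iars at -0.32, the alanine enzyme Aars at -0.32 and the methionine enzyme Mars1 at -0.23. Among 18 genes of one-carbon and serine synthesis 4 rose and 4 fell, but 7 rose and 3 fell with library medians aligned, and 2 rose and 4 fell without deprived library 1. Mthfd2, of the mitochondrial folate pathway, went from 5155, 5226 and 5064 to 2601, 2378 and 2555 normalised counts (-1.03 ± 0.047), while the purine enzymes Gart (0.21) and Paics (0.16) were higher and Phgdh (-0.13) was lower, a call lost when the library medians were aligned (-0.084).

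**Figure D2:**
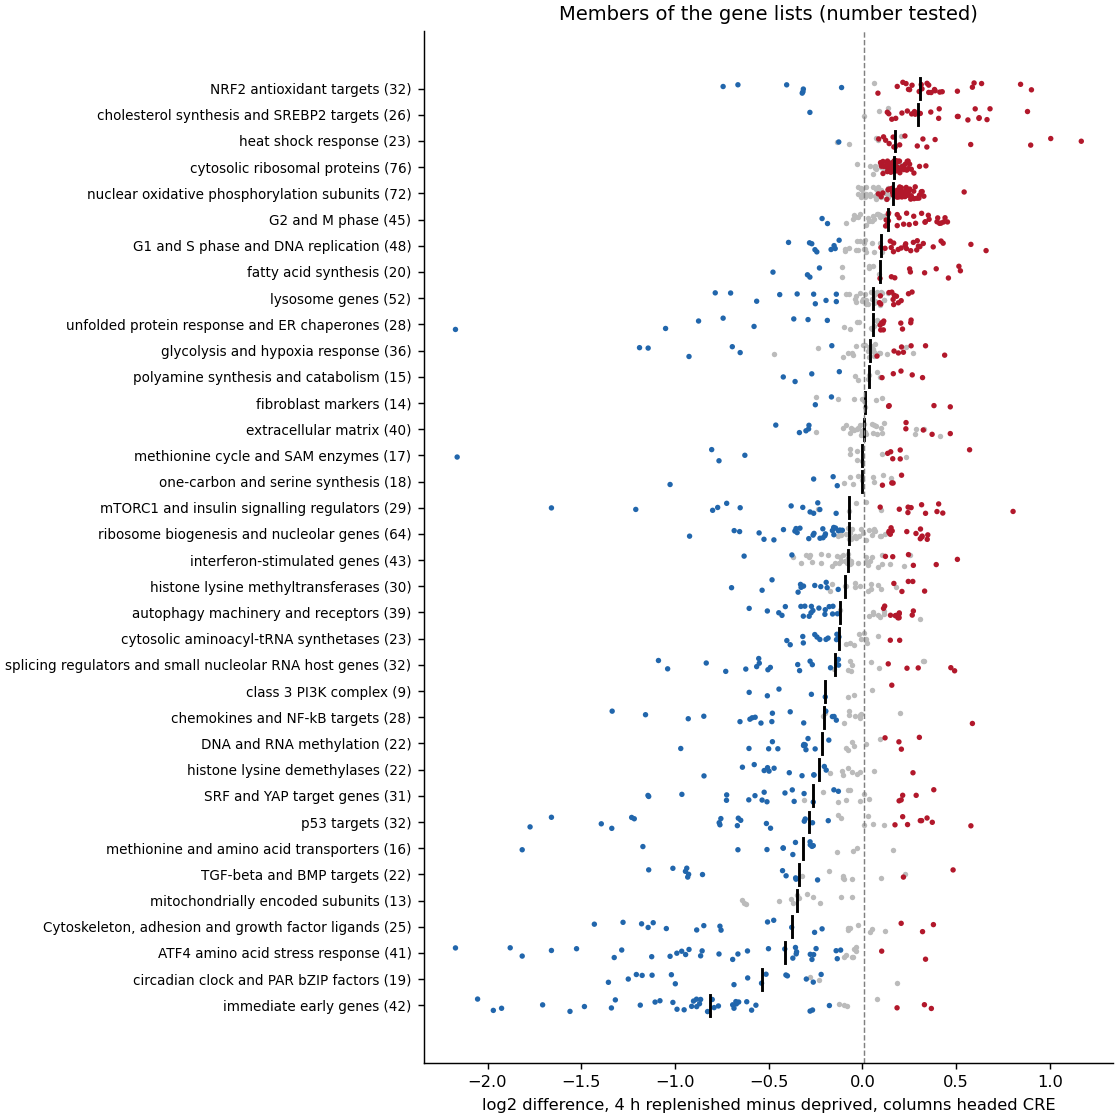
Differences between replenished and deprived libraries headed CRE on the log2 scale (horizontal axis) for the members of 36 gene lists, with the number tested in brackets. Points are genes, red where higher and blue where lower past an adjusted p of 0.05 and grey otherwise, black bars are list medians and the dashed line is the median of all genes tested, 0.01. Immediate early genes have the lowest median, -0.81, and NRF2 targets the highest, 0.31.

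Immediate early genes, which respond within minutes to serum, stress or a block in translation, were lower in 35 of 42 cases and higher in 3, with a median of -0.81. Myc (chromosome 15, 61985391 to 61990374, plus strand), the growth regulator, stood at 9334, 9194 and 8900.1 normalised counts when deprived and at 2463, 2422 and 2062 when replenished. Library 3 was the lowest of the replenished libraries, and the difference was -1.97 ± 0.05 (adjusted p = 1.13e-23), or -1.89 without it. Junb (chromosome 8, 84974484 to 84978718, minus strand), an AP-1 subunit, went from 5563, 5596 and 5295 to 1399, 1231 and 1259 normalised counts (-2.05 ± 0.046, adjusted p = 8.44e-26). The factor Klf4 went from 1956, 2014 and 2012 to 557, 516 and 433 normalised counts (-1.93 ± 0.061). Dusp5 (-1.48), a phosphatase that switches off ERK, Phlda1 (-1.32) and Mafk (-1.19) fell too. Egr1 was still at 19645, 18019.9 and 17089 normalised counts after replenishment, from 33239, 32300.1 and 31475 (-0.83 ± 0.042). Other genes among the 15 largest falls were Plk2 (-1.77), a p53 target, Plcxd2 (-1.66), Klf5 (-1.57), Sgk1 (-1.56), a kinase downstream of mTORC2, and Tiparp (-1.44), a target of the aryl hydrocarbon receptor.

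Other lists of induced genes were also lower in more members than higher. Of 32 p53 targets 18 fell and 8 rose, with the cell cycle inhibitor Cdkn1a going from 1539, 1674 and 1588 to 654, 582 and 601 normalised counts (-1.34 ± 0.058) and the stress gene Gadd45a from 2175, 2181 and 2273 to 805, 754 and 905 (-1.39 ± 0.052). Plk2, Sesn2 and Mdm2 (-0.76) were lower with them, and Ccnd1 was higher. Of 28 chemokines and NF-kB targets 17 fell and 1 rose, among them Tnfaip3 (-0.93), which restrains NF-kB, Ptgs2 (-0.85), which makes prostaglandin H2, and Csf1 (-0.65), a macrophage growth factor. Of 22 TGF-beta and BMP targets 12 fell and 2 rose (11 and 4 with library medians aligned). Among those lower were Klf10 (-1.01) and Skil (-0.94). SRF and YAP targets were lower in 17 of 31 cases and higher in 5, with Ajuba at -1.14 and Amotl2 at -0.96. Of 25 cytoskeleton, adhesion and growth factor genes 15 fell and 3 rose, including the neurotrophin Bdnf (-1.12), Rhob (-1.28) and Rnd1 (-1.18). These lists share members, so the counts are not separate observations.

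Clock genes were lower in 16 of 19 cases and none was higher, with a median of -0.54. Nr1d1 (chromosome 11, 98767932 to 98775333, minus strand), the repressor REV-ERB alpha, stood at 1089, 1028 and 1069.9 normalised counts when deprived and at 508, 487 and 417 when replenished. Library 3 was again the lowest, with a difference of -1.12 ± 0.069 over all libraries (adjusted p = 6.96e-15) and -1.04 without it. Bhlhe40, a repressor of CLOCK and BMAL1, went from 2095, 2096 and 1945 to 753, 787 and 793 normalised counts (-1.35 ± 0.057). Ciart (-1.25), Nfil3 (-1.18), Bhlhe41 (-1.02) and the cryptochrome Cry2 (-0.998) fell too.

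Genes of proteins that write, erase or read methyl marks were more often lower. The enzymes that write the marks use SAM. Histone lysine demethylases were lower in 13 of 22 cases and higher in 1, with a median of -0.23. Kdm6b, which removes methyl groups from histone H3 lysine 27, went from 2935, 2916 and 3002 to 1719.8, 1739 and 1439 normalised counts, with library 3 lowest (-0.84 ± 0.052). Kdm5b was at -0.64, Kdm4a at -0.51 and Kdm6a at -0.50. Of 30 histone lysine methyltransferases 12 fell and 5 rose: Kmt5b (-0.70) and Setd5 (-0.54) were lower and Smyd5 (0.33), Ehmt2 (0.27) and Setd3 (0.24) higher. Of 22 genes of DNA and RNA methylation 12 fell and 4 rose. Ythdc1, the nuclear reader of N6-methyladenosine, went from 4388, 4299 and 4285 to 2205, 2356 and 2024 normalised counts (-0.97 ± 0.048), and Wtap (-0.60), of the methyltransferase complex, and the readers Ythdf1 (-0.50) and Ythdf2 (-0.48) fell as well. The demethylases of this mark differed, with Alkbh5 at -0.30 and Fto at 0.30.

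Splicing regulators and host genes of small nucleolar RNAs were lower in 18 of 32 cases and higher in 5. The host genes Snhg1 (-1.09), Snhg5 (-1.04) and Snhg12 (-0.62), whose spliced transcripts are known to be unstable while ribosomes translate them, were lower, as were Ccnl1 (-0.55) and Rbm39 (-0.50). Without replenished library 3 the number higher was 8. Of 64 ribosome biogenesis and nucleolar genes 26 fell and 13 rose (20 and 17 with library medians aligned), a list that includes the nucleolar GTPase Gnl3 (-0.68), Twistnb (-0.66), a subunit of RNA polymerase I, and Utp15 (-0.55).

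Genes of sterol synthesis and uptake were higher after replenishment. Of 26 cholesterol synthesis and SREBP2 target genes 22 rose and 1 fell, with a median of 0.30, and without replenished library 3 the counts were 21 and 1. The promoter of Hmgcs1 (chr13:119690101-119690400, plus strand) is printed because it holds the only match among 18 list genes with a window to TCACNCCAC (GTGGNGTGA on the other strand), the sterol element that SREBP is known to bind, in capitals, 137 bases before the start.
Hmgcs1: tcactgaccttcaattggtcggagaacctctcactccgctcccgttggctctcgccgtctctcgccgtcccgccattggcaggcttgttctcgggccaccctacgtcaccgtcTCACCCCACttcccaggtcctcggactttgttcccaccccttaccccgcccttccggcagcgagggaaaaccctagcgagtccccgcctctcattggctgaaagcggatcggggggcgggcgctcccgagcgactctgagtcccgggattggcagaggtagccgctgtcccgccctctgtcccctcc
Of all tested genes with a window 1.32% held a match, and 5.56% of the list. Hmgcs1 (chromosome 13, 119690379 to 119708260, plus strand), an enzyme of the early mevalonate pathway, stood at 1143, 1132 and 1182 normalised counts when deprived and at 2067, 2150.4 and 2241 when replenished. The libraries of each group lay close together and the groups far apart, and the difference was 0.88 ± 0.044 (adjusted p = 4.5e-17). Dhcr7 (0.68), the last step of the pathway, Acat2 (0.62) and Nsdhl (0.56) rose with them. Of 20 fatty acid synthesis genes 10 rose and 4 fell. Scd2 (0.46), a stearoyl-CoA desaturase, Agpat2 (0.52), Elovl6 (0.39) and Acly (0.26) were higher, and Srebf1, the factor that drives many of them, was lower (-0.23).

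NRF2 antioxidant targets rose in 24 of 32 cases and fell in 7, with a median of 0.31. Nqo1 (chromosome 8, 107388225 to 107403206, minus strand), a quinone reductase, stood at 932, 984 and 978 normalised counts when deprived and at 1858, 1796 and 1845 when replenished. The groups were apart by nearly the whole of the lower level, with a difference of 0.90 ± 0.047 (adjusted p = 1.22e-16). Srxn1 (0.64), which restores peroxiredoxins, Gstp1 (0.60) and the pentose phosphate enzymes Pgd (0.59) and G6pdx (0.51) rose, while Nfe2l2, which encodes NRF2, went from 6895, 7033 and 6902 to 4204, 4325 and 3887 normalised counts (-0.74 ± 0.037). A match to TGACNNNGC on either strand (GCNNNGTCA), the antioxidant response element, was held by 10 of the 27 list genes with a window (37.0%). Of tested genes with a window 16.8% held one.

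Heat shock genes rose in 17 of 23 cases and fell in 1, with a median of 0.18. None of them fell with library medians aligned, without the filter, with the compared groups alone, or without library 2 of either group. GAANNTTC reads the same on both strands and is the core of the heat shock element. A match was held by 11 of the 18 list genes with a window (61.1%) and by 6.87% of tested genes with a window. The windows of Hspa1b (chr17:34959189-34959488, minus strand) and Hsph1 (chr5:149636287-149636586, minus strand) are printed for the largest rises of the list, with the match in capitals, 104 bases before the start in Hspa1b and 41 after it in the Hsph1 window, 1 of the 2 windows of that gene.
Hspa1b: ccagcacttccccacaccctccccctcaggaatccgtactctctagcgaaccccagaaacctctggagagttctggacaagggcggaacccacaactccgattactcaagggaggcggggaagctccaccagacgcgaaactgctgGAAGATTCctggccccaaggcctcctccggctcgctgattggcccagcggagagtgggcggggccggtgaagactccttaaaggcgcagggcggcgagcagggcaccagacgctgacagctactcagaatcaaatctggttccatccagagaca
Hsph1: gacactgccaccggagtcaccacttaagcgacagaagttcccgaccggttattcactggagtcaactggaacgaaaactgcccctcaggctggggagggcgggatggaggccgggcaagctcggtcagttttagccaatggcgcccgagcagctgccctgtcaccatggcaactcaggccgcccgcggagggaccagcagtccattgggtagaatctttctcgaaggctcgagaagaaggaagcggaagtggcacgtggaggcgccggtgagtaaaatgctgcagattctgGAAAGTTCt
Hspa1b (chromosome 17, 34956436 to 34959238, minus strand), the inducible HSP70, stood at 394, 371 and 415 normalised counts when deprived and at 947, 952 and 884 when replenished, a difference of 1.17 ± 0.077 (adjusted p = 1.72e-13). Its near copy Hspa1a rose by 0.34, and reads may be split between these copies, so both values are uncertain. Hsph1, an HSP110 exchange factor, went from 2632, 2636 and 2629.7 to 5145, 5177 and 5654 normalised counts (1.00 ± 0.038). Hspa8 (chromosome 9, 40800984 to 40810087, plus strand), the constitutive HSC70, went from 19926, 18953 and 20314 to 35679, 35034 and 39805 normalised counts, highest in replenished library 3 (0.90 ± 0.038, and 0.84 without that library). The HSP40 gene Dnaja1 (0.58) and the HSP90 activators Ahsa1 (0.32) and Ahsa2 (0.39) rose, Hsp90aa1 by 0.16, and Dnajb4 fell by 0.13. Genes of the unfolded protein response in the ER did not share this direction: of 28 tested, 10 rose and 8 fell, and 5 rose without replenished library 3, without deprived library 1 or with the compared groups alone. The median of that list was 0.057, and 14 rose and 8 fell with library medians aligned. Most members named next are falls, though more of the list rose with all libraries. Dnajb9 (-1.05), Crebrf (-0.87), Xbp1 (-0.74) and its splicing enzyme Ern1 (-0.58) fell with Herpud1, and the ER co-chaperone Dnajc3 rose (0.26).

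Other large rises came outside these lists. Slc5a3 (chromosome 16, 92058322 to 92087473, plus strand), the sodium-coupled carrier of myo-inositol, stood at 1785, 1626 and 1484 normalised counts when deprived and at 3254, 3839 and 4927 when replenished. Library 3 was the lowest of the deprived and the highest of the replenished libraries, and the difference was 1.26 ± 0.13 (adjusted p = 2.33e-07), or 1.10 without replenished library 3. Zfc3h1 (1.03), of a complex that sends nuclear RNA to the exosome, Chpf2 (0.93), of chondroitin synthesis, Pdlim2 (0.91), Dixdc1 (0.81), Tardbp (0.79), the RNA-binding protein TDP-43, Snn (0.78) and the dynein light chain Dynll1 (0.75) were among the 15 largest rises. The non-coding D17H6S56E-5 stood at 2389, 2306 and 2402 and then at 4438, 4415 and 4596 normalised counts (0.91 ± 0.042).

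Cell cycle genes were more often higher. Of 45 genes of the G2 and M phases 26 rose and 2 fell, with a median of 0.14 (21 and 2 without replenished library 3), among them Ccna2 (0.40), the kinesin Kif20a (0.45), the checkpoint genes Mad2l1 (0.44) and Bub1b (0.33) and Birc5 (0.40). Of 48 G1, S phase and replication genes 23 rose and 9 fell. Cyclin E1, Ccne1, went from 1195, 1213 and 1175 to 1971, 1853 and 1902 normalised counts (0.66 ± 0.053) and cyclin D1, Ccnd1, from 5753, 5833 and 5576 to 8736, 8407 and 8549.6 (0.58 ± 0.032), while Dtl, a substrate receptor of a ubiquitin ligase, fell by 0.39.

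Genes of the translation and respiration machinery differed by small amounts. Of 76 cytosolic ribosomal protein genes 55 rose and none fell, with a median of 0.17. Only 21 passed without replenished library 3 (median 0.081) or with the compared groups alone, and 33 without deprived library 1. Their summed level was 38956 to 40265 CPM in deprived and 41151 to 47748 CPM in replenished libraries. Rpl37a stood at 2818, 3066 and 2955 normalised counts when deprived and at 3562, 3347 and 4369.6 when replenished, with library 3 well above libraries 1 and 2 (0.34 ± 0.071), and Rps4x at 0.22 and Rpl29 at 0.23 were of the same order. Many ribosomal protein genes have processed copies that can share reads. Of 72 nuclear genes of oxidative phosphorylation 45 rose and none fell (median 0.17), and 28 rose without replenished library 3 (median 0.11). Uqcrh, a subunit of complex III, had the largest difference of those named, from 523, 542 and 578 to 762, 806 and 878 normalised counts (0.54 ± 0.06), before Sdhd (0.31) of complex II.

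The mitochondrially encoded genes carry the mark of library 3. COX1 stood at 128013, 124458 and 126572 normalised counts in deprived libraries and at 142856, 146044 and 60179 in replenished libraries 1 to 3. Libraries 1 and 2 were above all deprived libraries and library 3 was below them by more than the range of the rest. The difference was -0.23 ± 0.21 (adjusted p = 0.398), and 0.19 without library 3, past 0.05. None of the 13 genes passed 0.05 with all libraries, and their median difference was -0.35. Without library 3 the median was 0.10 and 3 rose, COX1 (0.19), CYTB (0.14) and ND2 (0.35). Without replenished library 1 instead 7 were lower, and without library 2, 4 were lower. ATP6 and ATP8, and ND4 and ND4L, overlap on the genome, so their counts cannot be fully told apart. The share of these genes in library 3 is a measured fact of the file, and its part in the other results was not tested beyond leaving the library out. That left 3348 genes higher and 3445 lower.

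**Figure D3:**
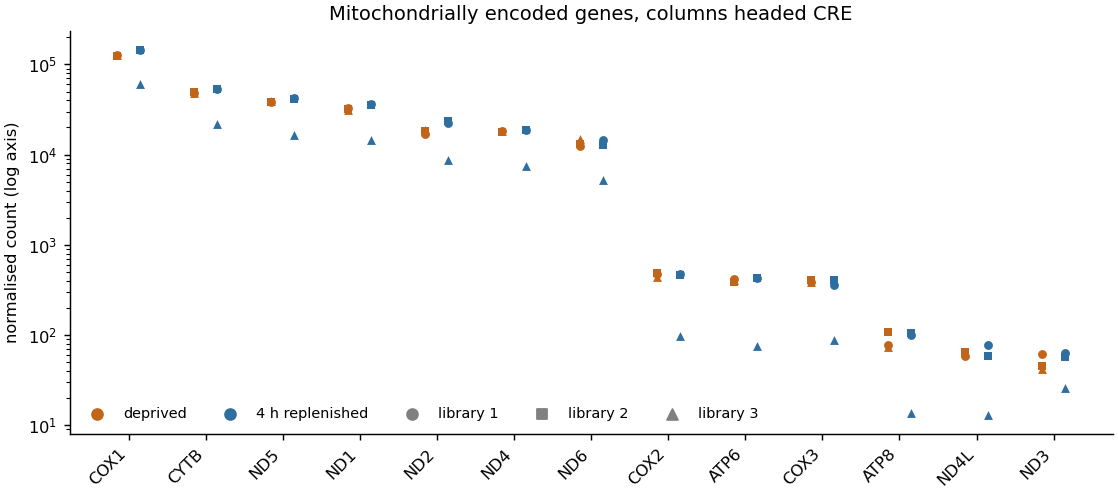
Normalised counts (log axis) of the 13 mitochondrially encoded genes in the 3 deprived and 3 replenished libraries headed CRE. Replenished library 3 (blue triangles) is the lowest library for each gene, at 60179 against 124458 to 146044 for COX1.

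Autophagy genes, to which the class 3 PI3K belongs, were lower in 19 of 39 cases and higher in 11, with a median of -0.12. With library medians aligned 15 rose and 15 fell, with a median of -0.071. The number higher was 7 without replenished library 3 and 6 without deprived library 1, and the median was 0.0074 without deprived library 3. Sqstm1 (chromosome 11, 50199366 to 50210827, minus strand), the cargo receptor p62, stood at 50392, 52044 and 53325 normalised counts when deprived and at 41448, 41104 and 42634 when replenished. The groups did not overlap, with a difference of -0.32 ± 0.032 (adjusted p = 7.93e-10). In the class 3 PI3K complex and its partners 5 of 9 genes fell and 1 rose. Atg14, which directs the complex to autophagosomes, went from 1280.1, 1369.7 and 1301 to 846, 903 and 816 normalised counts (-0.60 ± 0.055), Uvrag, its endosomal counterpart, from 1580.2, 1590.5 and 1532 to 1060.0, 1117 and 1100.0 (-0.51 ± 0.044), and Nrbf2 (-0.45), Ambra1 (-0.27) and Rubcn (-0.20) were lower too. Becn1, the Beclin 1 subunit, rose by 0.16, and the catalytic subunit Pik3c3 (0.050), Sh3glb1 (-0.046) and Pik3r4 were not past 0.05. The receptor Nbr1 (-0.33), Wipi2 (-0.28) and the transcription factor Mitf (-0.41) fell.

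Of 52 lysosome genes 13 rose and 10 fell, with a median of 0.058, but 26 rose and 7 fell with each library shifted to a common median. The genes named next are falls, though more of the list rose. Flcn (-0.56) and its partners Fnip1 (-0.70) and Fnip2 (-0.79), which act on the Rag GTPases at the lysosome, fell, as did the cholesterol exporter Npc1 (-0.44). Of 29 regulators of mTORC1 and insulin signalling 11 rose and 13 fell. Castor2, a paralogue of the arginine sensor Castor1, went from 348, 414 and 395 to 693, 669 and 733 normalised counts (0.80 ± 0.071), and Txnip (-1.21), which limits glucose uptake, Foxo3 (-0.77), Foxo1 (-0.72) and Irs2 (-0.65) fell. Of 36 glycolysis and hypoxia genes 8 rose and 6 fell, both below the shares of all genes, with a median of 0.041. With library medians aligned 14 rose and 6 fell. The members named are all falls, though more of the list rose: Hk2 (-1.19), Vegfa (-1.14, or -0.96 without replenished library 3), Ndrg1 (-0.93), Pfkfb3 (-0.69) and Ero1a (-0.65). Of 43 interferon-stimulated genes 6 rose and 2 fell, below the shares of all genes, with Oas3 at -0.63. A fit of the compared groups alone gave 8 and 14, and the number higher was 1 without replenished library 3 or without deprived library 1 and 3 without deprived library 2. Of 40 extracellular matrix genes 5 rose and 5 fell. With library medians aligned 12 rose, without replenished library 1 10 rose and 3 fell, and Col3a1 (0.47) and Timp3 (-0.46) had the largest differences of those named. Of 14 fibroblast markers tested 4 rose and 2 fell, and with them the summed level of the 16 markers went from 8160 to 8378 CPM in deprived to 8933 to 9290 CPM in replenished libraries.

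The same contrast under the GFP headings went the other way for most of the genes that changed. It shares no library with the CRE contrast. By the library numbers in the labels that equal the file places, the GFP columns headed deprived (places 4 to 6) would be Vps15KO basal. Those headed replenished for 4 h (places 10 to 12) would be Vps15KO deprived. Which order the values follow was not tested, nor was its part in the difference between the headings. Under the GFP headings 4630 genes rose (33.3%) and 4563 fell (32.8%), 66.1% of those tested in all. The test of the difference between the headings found 4883 genes with a higher difference under CRE (35.1%) and 4735 with a lower one (34%), 69.1% in all. Of the 3614 genes that rose under CRE 2650 fell under GFP, 19% of the genes tested, 73.3% of the former and 58.1% of the latter list. Of the 3597 that fell under CRE 2832 rose under GFP, 20.4% of the genes tested and 78.7% and 61.2% of the lists. In the same direction went 178 genes that rose (1.28%) and 146 that fell (1.05%) under both headings.

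**Figure D4:**
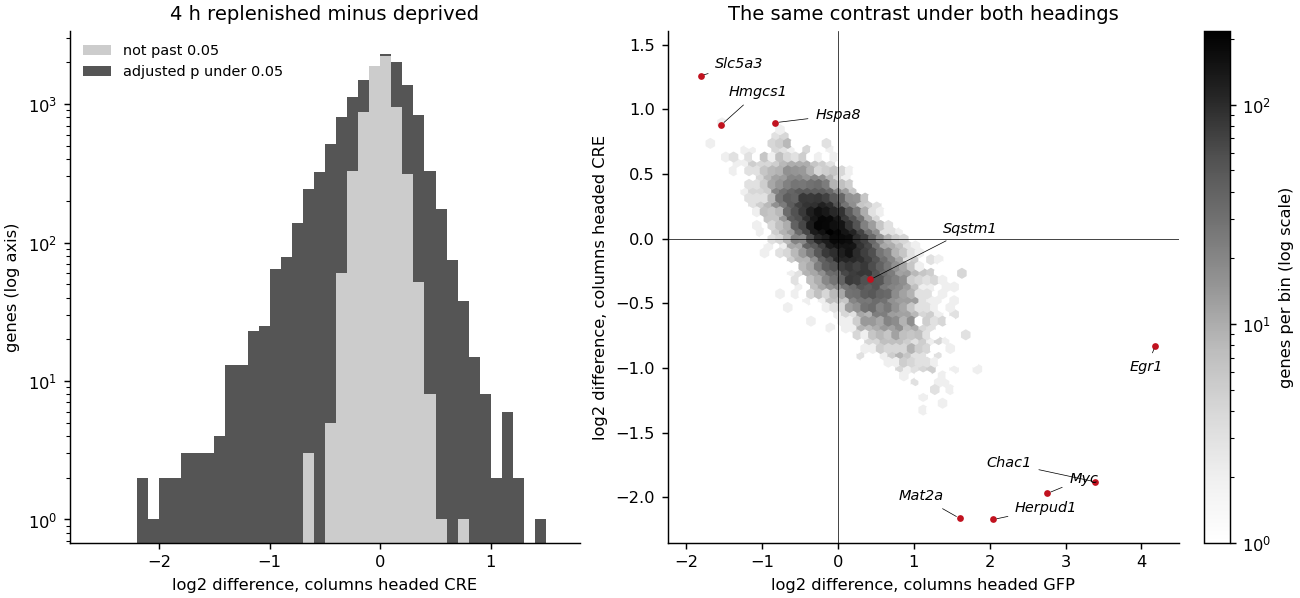
Left, the number of genes (log axis) by difference on the log2 scale, replenished minus deprived, for columns headed CRE, stacked by whether the adjusted p was under 0.05, with a longer tail of falls than of rises. Right, the difference of each gene under CRE (vertical) against that under GFP (horizontal), with shading for genes per bin and 9 named genes as points, none of which has the same sign under both headings.

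Chac1 rose by 3.38 under GFP, so that the differences stood -5.26 ± 0.074 apart (adjusted p = 8.32e-31). Egr1 rose by 4.18 under GFP (-5.01 ± 0.06 for the difference between the headings), Myc by 2.76 (-4.73 ± 0.07) and Junb by 2.48 (-4.53 ± 0.065). These 4 are among the 8 genes with the most negative difference between the headings, and all were lower after replenishment under CRE. On the other side Slc5a3 fell by 1.81 under GFP (3.07 ± 0.18), Aldh3a1 fell by 1.89 (3.00 ± 0.13) and Hmgcs1 fell by 1.54 (2.42 ± 0.063). The ATF4 list had 39 of 41 genes higher under GFP and none lower, and sterol genes had 25 of 26 lower and 1 higher. A few genes went the same way. Ccne1 rose under both headings (0.27 under GFP), Amd1 fell under both (-0.21 under GFP, with a difference between the headings of -0.063 ± 0.077, adjusted p = 0.485), and Gart rose under both (0.21 under GFP).

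Levels over all 8 headings show where the compared groups stand. In file order Mat2a averaged 5168, 4579, 15108 and 13974 normalised counts in the GFP columns headed basal, deprived, replenished for 1 h and replenished for 4 h, and 12353, 12286, 3541 and 2820 in the CRE columns in the same order. The deprived CRE columns were thus among 4 neighbouring headings with high levels, and the replenished ones among the 4 low ones. By the library numbers in the labels that equal the file places, the 4 high sets would be WT deprived, Vps15KO deprived, WT replenished for 1 h and Vps15KO replenished for 1 h, and the 4 low ones both basal sets and both sets replenished for 4 h. Myc was high and low under the same headings as Mat2a, from 7953 to 15794 in the high and from 2298 to 2642 in the low ones. Hspa8 was the reverse, at 19731 to 22125 where Mat2a was high and 36839 to 40799.9 where it was low. Hmgcs1 stood at 2543 and 3237 under the GFP headings basal and deprived, at 2153 under CRE replenished for 4 h and at 1023 to 1168 under the other 5. Chac1 was high and low under the same headings as Mat2a, from 5057 to 14513 in the high ones and from 590 (± 12.4, SD, n = 3, basal GFP) to 2871 in the low ones. Sqstm1 did not split this way, with its highest level in the deprived CRE columns (51920 ± 1471), and the replenished CRE columns (41729 ± 803) above GFP replenished for 1 h (34846 ± 528).

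**Figure D5:**
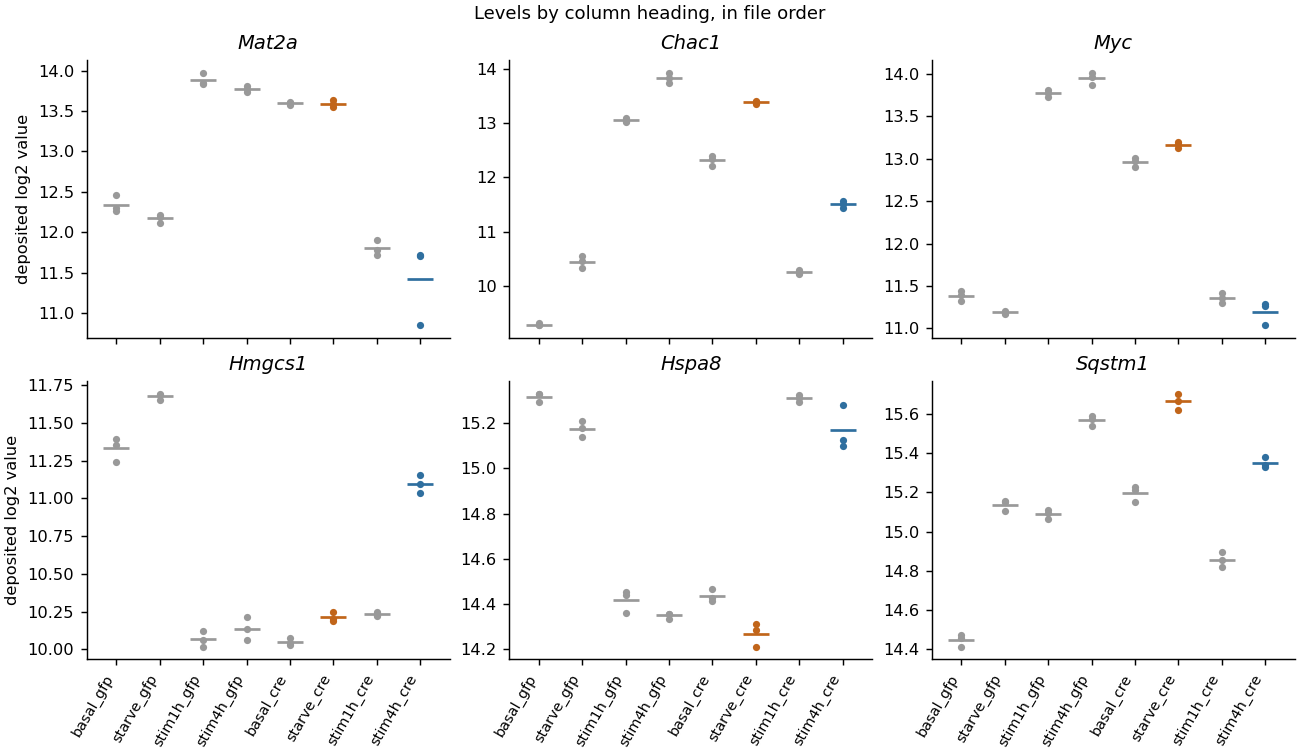
Deposited log2 values of 6 genes in each of the 24 fibroblast libraries by column heading in file order, with bars at the means of 3 libraries. The columns compared here are in orange (deprived CRE) and blue (4 h replenished CRE). Mat2a and Myc are high under the 4 middle headings and low under the outer ones, and Hspa8 is the reverse.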

How the data were processed

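Polyadenylated RNA of 24 fibroblast and 12 liver libraries was sequenced, and the liver counts deposited as raw counts per gene (9110836 to 12870944 per library) were not used in any comparison here. For fibroblasts the authors deposited log2 values after a variance-stabilizing transformation over all 24 libraries. STAR 2.7.10b, featureCounts, DESeq2, limma and build mm10 are named in the submitters' processing notes. Strand settings and filters are not given in the sources used here. The lowest log2 value was 4.17, and undoing the transformation gave whole counts (within 0.01) in 100% of cases. The number of columns not used was 0. Levels in the text are these counts divided by the size factors that the transformation implies.

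The planned test depended on whether the values were counts. Since they were log2 values, limma 3.58.1 (R 4.3.3) fitted 8 group means over the 24 libraries (trend and robust options on). Tested were the 13914 genes that averaged no less than 1 over that lowest value, with Benjamini-Hochberg adjustment and a threshold of 0.05. The difference between headings was the interaction in the same fit. Alternatives were a shift of each library to 1 median (also without mitochondrially encoded genes), no filter, the trend option off, a block for replicate number, a fit of the compared groups alone, edgeR 4.0.16 (trimmed mean of M-values) and DESeq2 1.42.0 on the recovered counts, a change of at least 1, and each library left out.

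Genes were named by a rule: Pik3r4, Mat2a, Atf4, Asns, Ddit3, Sqstm1 and Nr1d1, up to 6 members of each list with the smallest adjusted p, the 15 largest rises and 15 largest falls among genes whose libraries did not overlap and whose higher group reached the median gene, and the 8 largest interactions in each direction. Symbols of the form Gm plus digits or ending in Rik were left out, and other members named in the text were picked with their values in view. Some genes that the rule names are not reported here. The genes compared, the lists and the tests were chosen with earlier results of these data known. Coordinates are from GENCODE M21 (GRCm38, the mm10 build) and promoter windows from RefSeq (GRCm38.p6). Windows on chr18 were left out of the motif search, so genes there count as having no window. In simulated data of 13956 genes, 100 were changed by 0.5 and 100 by 1 on the log2 scale. Of these limma called 74 and 88, with 11 false calls. In the measured comparison under CRE 51.8% of the genes tested were past 0.05, a far larger share than was changed in the simulation. The simulated calls therefore do not measure the rates of missed or false calls in the comparison itself.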

Additional observations from a re-analysis of the deposited data

Results flagged for a closer look

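These results are listed because the contrast of 4 h replenished with deprived differed between the CRE and GFP headings by the interaction test in limma, with values as CRE minus GFP on the log2 scale. It did so for 9618 genes, 69.1% of those tested. Below 0, with a lower difference under CRE, were the ATF4 response genes Chac1 (-5.26), Trib3 (-4.12), Herpud1 (-4.22), Atf4 (-2.48), Ddit3 (-1.86) and Asns (-1.30), the immediate early genes Egr1 (-5.01), Myc (-4.73) and Junb (-4.53), and Plk2 (-4.51), Plcxd2 (-3.89), Mat2a (-3.77) and Nr1d1 (-2.74). Sqstm1 (-0.74) and Pik3r4 (-0.16, adjusted p = 0.0458) were also past 0.05. Above 0 were Slc5a3 (3.07), the aldehyde dehydrogenase Aldh3a1 (3.00), D17H6S56E-5 (2.85), Nqo1 (2.45), Hmgcs1 (2.42), the ferritin receptor Scara5 (2.40), Pdlim2 (2.39) and Hspa1b (2.27). The columns under both headings stand at places that differ from the library numbers in the labels for the deprived CRE and for both GFP groups, and the part of this in the difference was not tested.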

How the results depend on the processing

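The numbers of genes higher and lower under CRE (3614 and 3597) were 3385 and 3468 without the filter, 3557 and 3599 without the trend, 2990 and 3147 with the compared groups alone, 3476 and 3757 by edgeR and 3406 and 3330 by DESeq2. Leaving out each of the 6 libraries gave 3163 to 3483 higher and 3263 to 3461 lower. With library medians aligned they were 4618 and 2990, or 4625 and 2989 also without mitochondrially encoded genes, and the median of all genes moved from 0.01 to 0.06. A change of at least 1 left 11 and 94. The labels do not say whether a replicate number marks a shared culture or day. Correlations of the deviations of same-numbered libraries were 0.065, -0.15 and -0.088, and those of differently numbered ones ranged from -0.18 to 0.22. With 3 libraries per group these values cannot decide it. The replicate block gave 3673 and 3630 and changed no call of a named gene. Reversed without replenished library 3 were COX1 (0.19), CYTB (0.14) and ND2 (0.35), whose lowest values with another library left out were -0.45, -0.52 and -0.36. Counted as pairs of a single-gene call and a setting, so that 1 gene can enter several times, 17 calls were lost and 5 gained outside the leave-one-out fits. Within those fits 24 were lost, 16 gained and 3 reversed. Most settings held 264 such calls. Normalised counts under about 100, as for ND3 and Ccl7, carry counting error that limits small differences, and all intervals and tests cover these libraries only.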
